A study of Mus musculus with 4 samples.

Results

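The genes described here encode the proteins of the mitochondrial ribosome, named Mrpl for the large and Mrps for the small subunit. They were taken by name from the RPKM tables (reads scaled by gene length and library depth), as every mouse symbol that begins with Mrpl or Mrps followed by a digit. Of several rows for a symbol, that of the highest mean level stood for it. Of 77 such names, Mrpl53 and Mrps11 were listed at 0 in every library and were left out, which gave 75 members among 32868 gene names in all. Of these, 73 reached at least 0.5 RPKM in at least 2 libraries and were tested. Mrpl13 and Mrps2 did not, with no library above 0.11 RPKM. These 4 are reported only as listed at or near 0.

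The libraries hold RNA of the tibialis anterior, a mostly fast leg muscle, of C57BL/6 mice at postnatal day 21. The 2 Het libraries carried the genotype Nf1flox/+/Myf5+, with 1 floxed allele of Nf1, and the 2 Nf1-KO libraries carried Nf1flox/flox/Myf5+, with 2 floxed alleles, so that both groups share the Myf5+ label and at least 1 floxed allele. Myf5 in such a cross commonly denotes a Cre recombinase active in muscle precursors, although the labels do not spell it out, and the other cells of the muscle would keep their Nf1. Nf1 encodes neurofibromin, an inhibitor of Ras, and the series asks whether muscle needs it for postnatal growth and metabolic balance. The labels do not say whether the libraries of a group came from separate animals, so p-values measure only the spread between these libraries, which may be technical.

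Mitochondrial ribosomes translate the few mRNAs of the mitochondrial genome, which encode core subunits of the respiratory chain and of ATP synthase. Their rRNA is transcribed inside the organelle, whereas all of their proteins are encoded in the nucleus, made in the cytosol and imported. Some of these proteins descend from bacterial ribosomal proteins and others arose with the mitochondrion. Fibres that rely on oxidation hold more mitochondria than fast glycolytic fibres.

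Nf1 itself was listed at 1.09 and 1.01 RPKM in the Het libraries and at 0.89 and 0.85 RPKM in the Nf1-KO libraries. Without overlap between the groups, Nf1 had a log2 fold change of -0.18 (standard error 0.057) and a limma adjusted p of 0.041, which was 0.094 without scaling between libraries. The call was also lost with the replicate number as a block (limma adjusted p 0.0557), with no filter (0.074) and whichever library was left out (0.0568 to 0.179). At this low level the value depends on the pseudocount, with -0.33 at a pseudocount of 0.1, and the authors' deposited table gives -0.38 (adjusted p 0.00258). The fibre genes Acta1 and Ckm had group means of 15870 and 5904 RPKM in Het and 12410 and 5594 RPKM in Nf1-KO, so the fibre markers of the labelled tissue were present. Of 10 fibre markers, 8 were lower and 2 higher in Nf1-KO, with summed levels of 64790 and 64990 RPKM in Het against 51580 and 51380 RPKM in Nf1-KO. The 2 higher were the myosin genes Myh1 and Myh2, with log2 fold changes of 0.52 and 0.77. The 8 lower ran from -0.17 for Ckm to -1.72 for Pvalb, with the myosin gene Myh4 at -1.08. In a muscle piece, fewer cells of a type and less RNA per cell cannot be told apart.

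The members were expressed at moderate and unequal levels. Their mean over the 4 libraries ran from 2.95 RPKM for Mrps25 to 116.7 RPKM for Mrps21, a range of 39.6-fold, with a median of 20.1 RPKM against 4.15 RPKM over all genes tested. Between 5 and 60 RPKM lay 62 of the 73. The highest levels belonged to Mrps21 (a bacterial-type protein of the small subunit), Mrpl12 (the stalk protein that recruits translation factors), Mrpl30 and Mrpl18. Mrps25, Mrps22, Mrpl17 and Mrpl19 were lowest, at 2.95, 3.36, 4.82 and 4.92 RPKM. Replicates were close, with a median coefficient of variation of 2.47% in Het and 2.21% in Nf1-KO. The widest spreads were 17.5% for Mrpl27 in Het and 16.2% for Mrps18b in Nf1-KO. In the authors' deposited table the mean normalised counts of the members ran from 243.6 to 7612, with a median of 1245, and Mrps34 had the lowest.

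In Nf1-KO muscle, more members rose than fell, and all of the changes were small. Past the threshold (limma on log2(RPKM + 1), adjusted p under 0.05 over all genes) 30 members were higher and 9 lower, and 34 did not pass. The share called in either direction, 53.4%, was near the 50.2% of all 10690 genes. By direction, 41.1% of the members were higher where 24.9% of all genes were, and 12.3% were lower where 25.4% were. The median log2 fold change was 0.06, beside 0.0005 over all genes. Of the 39 called members 0 exceeded 0.5 in absolute log2 fold change, a size that 9.75% of all genes reached with a call, and 30 of them lay under 0.25. Summed over the 75 members, levels as deposited were 1844 and 1840 RPKM in Het and 2093 and 2112 RPKM in Nf1-KO.

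Because the shifts are small, the scaling between libraries set many of the calls. With values as deposited, 48 members were higher and 2 lower, where 35.2% and 17.6% of all genes were (52.8% in either direction). The median of the members was then 0.15 and that of all genes 0.07. All 30 higher members stayed higher without scaling, and 18 more joined them. Of the 9 lower members, Mrpl55 and Mrps12 stayed lower without scaling and the other 7 no longer passed. Ignoring the test, both Nf1-KO libraries lay above both Het libraries in 40 members by the scaled values (54.8%, against 38.2% of all genes). They lay below in 12 (16.4%, against 38.1%), and in 21 members the groups overlapped. As deposited, 53 members lay above (49.8% of all genes) and 4 below (27.4%).

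**Figure D1:**
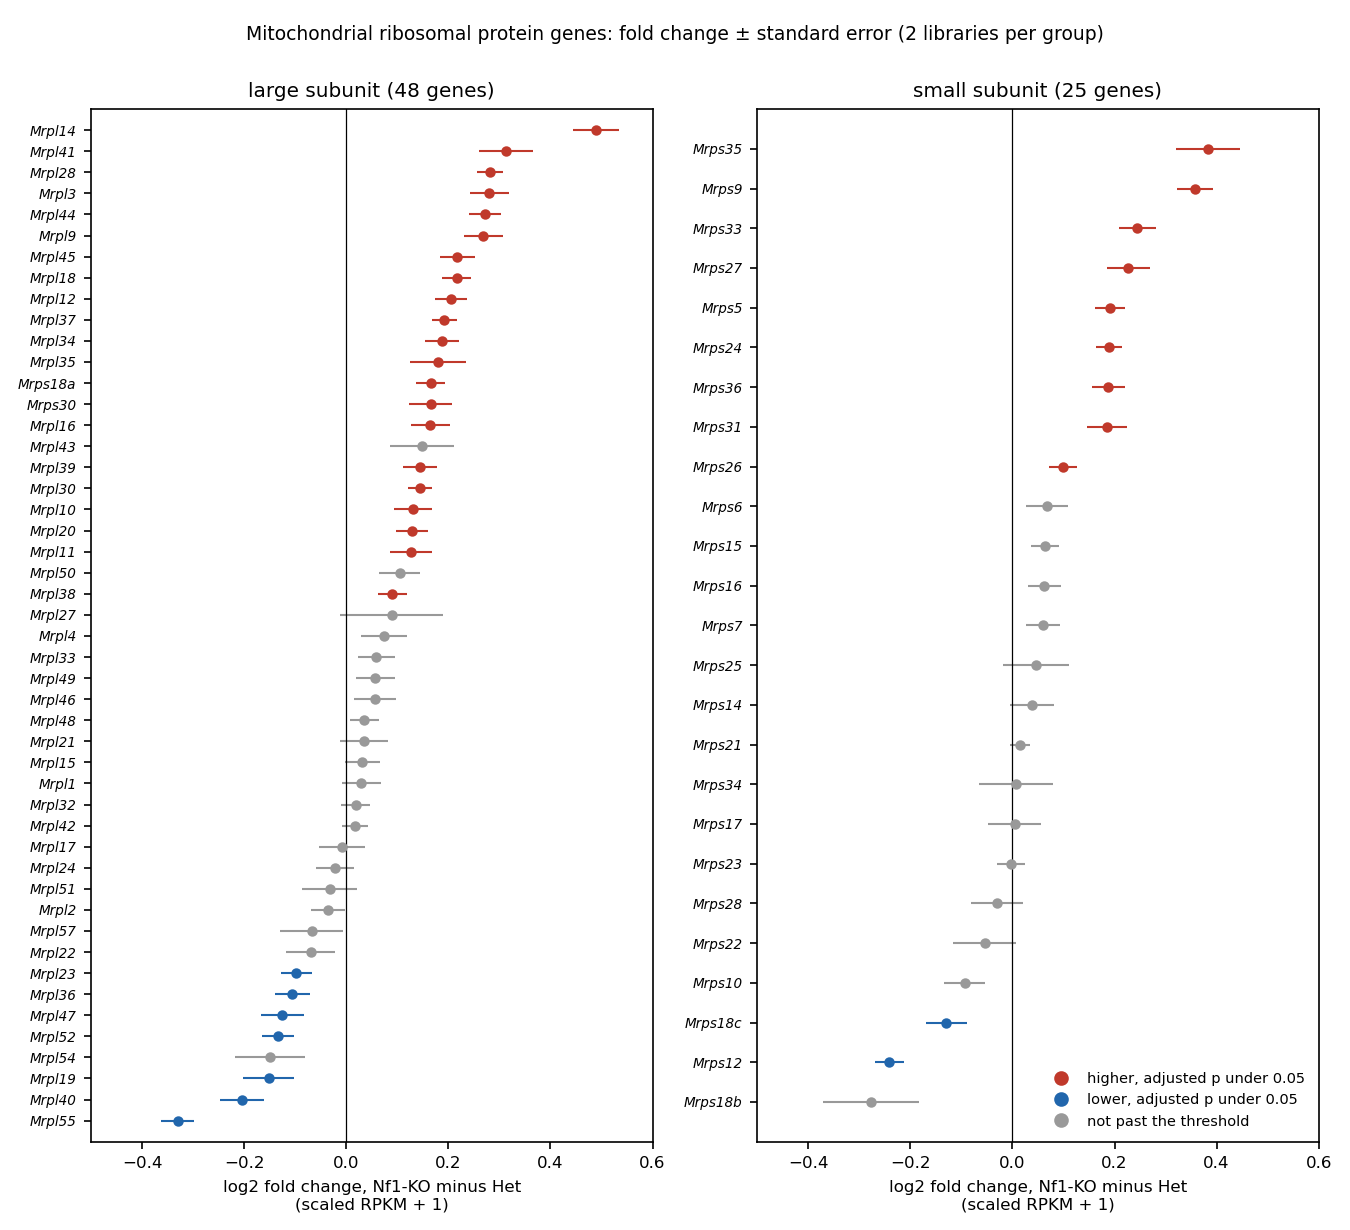
Log2 fold change of Nf1-KO against Het (x axis, scaled RPKM + 1) for each of the 73 tested members, with the standard error as a bar. The members are split into 48 large and 25 small subunit genes, the latter with Mrps36 by its name. Points run from -0.33 for Mrpl55 to 0.49 for Mrpl14, and red and blue mark the 30 higher and 9 lower members.

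Mrpl14, a conserved protein of the large subunit at the face that meets the small subunit, showed the largest increase. It was listed at 55.7 and 61.2 RPKM in Het and at 86.8 and 89.1 RPKM in Nf1-KO. Both Nf1-KO libraries lay well above both Het libraries, by 0.49 on the log2 scale (standard error 0.045, limma adjusted p 0.000272). Exons of Mrpl14 overlap those of Tmem63b, a gene for a membrane channel, in the GENCODE M21 annotation. Tmem63b was listed at 27.1 and 27.4 RPKM in Het and at 44.7 and 44.8 RPKM in Nf1-KO, and rose as well (log2 fold change 0.60, limma adjusted p 9.59e-06). Whether the counting used strand is not given in the sources used here, and how far the neighbour's reads enter the value of Mrpl14 was not tested.

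Mrps35 and Mrps9 followed, both in the head of the small subunit. Mrps35, which has no bacterial counterpart, was at 14.6 and 12.7 RPKM in Het and at 19.5 and 19.1 RPKM in Nf1-KO, a log2 fold change of 0.38 (standard error 0.063, limma adjusted p 0.00316). The Het replicates differed more from each other than the Nf1-KO replicates did, without closing the gap. Mrps9, whose bacterial relative reaches the tRNA in the ribosome, was at 7.83 and 7.68 RPKM against 10.8 and 11.0 RPKM. Its log2 fold change was 0.36 (standard error 0.036, limma adjusted p 0.000403), with tight pairs in both groups.

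The remaining 5 of the 8 largest increases were large subunit genes. Mrpl41, a mitochondrion-specific protein, was at 5.58 and 5.70 RPKM in Het and at 7.35 and 8.13 RPKM in Nf1-KO, with a log2 fold change of 0.31. Mrpl28 was at 33.6 and 32.9 RPKM against 43.4 RPKM in each Nf1-KO library, a log2 fold change of 0.28. Mrpl3, whose bacterial relative lies near the peptidyl transferase centre, was at 11.6 and 11.5 RPKM against 15.6 and 14.8 RPKM, also a log2 fold change of 0.28. In all 3 genes the groups were apart by more than the distance between replicates. Mrpl44, which carries a fold related to ribonuclease III, was at 14.4 RPKM in each Het library and at 19.0 and 18.5 RPKM in Nf1-KO, a log2 fold change of 0.27. Its exons overlap those of Wdfy1, which was at 1.01 and 0.89 RPKM in Het and at 3.59 and 3.44 RPKM in Nf1-KO, and the part of Wdfy1 in the value was not tested. Mrpl9 was at 24.6 and 25.5 RPKM against 33.3 and 31.5 RPKM, with a log2 fold change of 0.27.

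Mrpl55, a large subunit protein of animals, showed the largest decrease among the members that passed. It was at 22.2 and 22.9 RPKM in Het and at 18.7 and 19.2 RPKM in Nf1-KO, a log2 fold change of -0.33 (standard error 0.032, limma adjusted p 0.000351). The groups did not overlap with or without scaling. Mrps12, the small subunit protein of the decoding centre, was at 28.4 and 28.6 RPKM against 25.9 and 25.2 RPKM, a log2 fold change of -0.24 (standard error 0.028, limma adjusted p 0.000767). It too stood apart on both scales. Mrpl40 was at 13.3 and 13.8 RPKM in Het and at 11.97 and 12.82 RPKM in Nf1-KO, with a log2 fold change of -0.20 and a limma adjusted p of 0.00911, which became 0.0643 without scaling.

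The other lower members changed little, and their calls were lost in several fits. Mrpl19, Mrpl52, Mrps18c, Mrpl47, Mrpl36 and Mrpl23 had log2 fold changes of -0.15, -0.13, -0.13, -0.13, -0.11 and -0.10. Their limma adjusted p lay between 0.014 (Mrpl52) and 0.0495 (Mrpl47). Mrpl23, at the mouth of the tunnel through which the new protein leaves, shows the case: it was at 63.2 and 61.0 RPKM in Het and at 60.5 and 63.2 RPKM in Nf1-KO. The deposited groups overlapped for Mrpl23, and only after scaling were both Nf1-KO libraries lower. None of the 6 passed without scaling. With scaling, the replicate number as a block ended the calls of Mrpl47, Mrpl36 and Mrpl23 (limma adjusted p 0.0642, 0.0563 and 0.0577), and Mrpl47 kept its call in 2 of 13 alternative fits. Mrpl19 lost its call whichever library was left out, and the other 5 lost theirs without at least 1 of the libraries. Exons of Mrpl47 overlap those of Ndufb5 and Actl6a, and exons of Mrpl36 overlap those of Ndufs6. Ndufb5 fell by 0.14 and Ndufs6 rose by 0.20 on the log2 scale, at 155.5 RPKM or more in every library, and their part in these members' values was not tested.

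**Figure D2:**
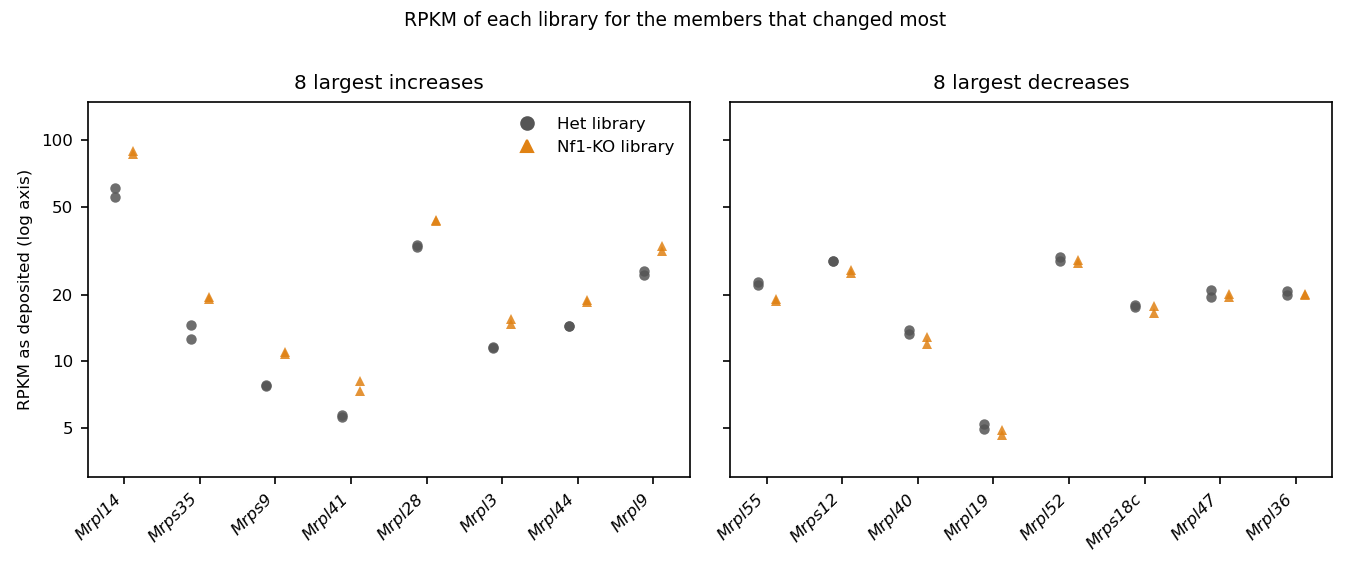
RPKM as deposited (log axis) of each Het library (circles) and each Nf1-KO library (triangles) for the 8 members with the largest increases and the 8 with the largest decreases among those past the threshold. Groups are apart for each of the 8 increases, while from Mrpl52 to Mrpl36 the unscaled groups overlap.

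Promoter windows are shown for the members past the threshold that changed most in each direction among those with 1 window, 4 in all, Mrpl14 and Mrps9 for the increases and Mrpl55 and Mrps12 for the decreases. The windows are those of RefSeq on build GRCm38.p6, 300 bases long, from 250 before the start site to 50 from it onward, written 5′ to 3′ on the gene's strand. Capitals mark matches to any of 5 motifs, searched on both strands. For NRF-1 the motif was GCGC, any 1 base, then TGCGC. The others were CCGGAAG for GABPA, CAAGGTCA for estrogen-related receptors, AAGATGGC for YY1 and CACGTG for Myc and USF. NRF-1, GABPA and YY1 are known to act on nuclear genes of mitochondrial proteins.
Mrpl14 (chr17:45686099-45686398, plus strand): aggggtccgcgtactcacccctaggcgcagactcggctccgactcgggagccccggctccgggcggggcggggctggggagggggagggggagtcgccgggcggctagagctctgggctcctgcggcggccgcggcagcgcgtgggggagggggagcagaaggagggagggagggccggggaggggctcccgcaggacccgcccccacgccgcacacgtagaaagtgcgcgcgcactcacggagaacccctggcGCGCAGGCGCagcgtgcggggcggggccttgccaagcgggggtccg
Mrps9 (chr1:42850983-42851282, plus strand): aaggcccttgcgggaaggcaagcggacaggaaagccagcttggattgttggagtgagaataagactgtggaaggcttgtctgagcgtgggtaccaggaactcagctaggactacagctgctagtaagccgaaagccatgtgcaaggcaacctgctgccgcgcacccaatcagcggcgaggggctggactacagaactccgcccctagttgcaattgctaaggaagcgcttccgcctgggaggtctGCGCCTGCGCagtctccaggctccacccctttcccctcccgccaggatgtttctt
Mrpl55 (chr11:59202236-59202535, plus strand): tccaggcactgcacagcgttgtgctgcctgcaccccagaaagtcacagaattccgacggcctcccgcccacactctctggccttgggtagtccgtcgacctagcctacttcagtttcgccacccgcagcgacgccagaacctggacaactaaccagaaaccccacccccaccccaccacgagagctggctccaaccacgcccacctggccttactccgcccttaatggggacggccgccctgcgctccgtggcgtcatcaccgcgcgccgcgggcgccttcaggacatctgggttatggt
Mrps12 (chr7:28741772-28742071, minus strand): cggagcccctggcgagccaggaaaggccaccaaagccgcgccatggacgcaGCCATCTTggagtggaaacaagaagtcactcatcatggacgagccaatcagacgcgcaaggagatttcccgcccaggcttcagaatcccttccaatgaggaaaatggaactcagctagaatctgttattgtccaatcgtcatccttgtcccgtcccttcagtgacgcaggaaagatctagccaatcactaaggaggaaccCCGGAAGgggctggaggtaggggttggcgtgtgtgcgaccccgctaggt
The windows of Mrpl14 and Mrps9 each hold 1 match to the NRF-1 letters close to the start site, GCGCAGGCGC (read on the other strand) and GCGCCTGCGC. That of Mrpl55 holds no match to the 5 motifs, and that of Mrps12 holds a GABPA match just after the start and a YY1 match far upstream of it.

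Over all tested members, 65 had at least 1 window, with 71 windows in all. The NRF-1 letters were in 13 of the 71 (18.3%), beside 10.5% of the 10054 windows of tested genes and 4.6% of all 32851 windows. They were in 9 of 28 windows of higher members, which were those of Mrpl9, Mrpl12, Mrpl14, Mrpl30, Mrpl39, Mrpl44, Mrpl45, Mrps9 and Mrps26. They were in 0 of 8 windows of lower members and in 4 of 35 windows of members that did not pass. The GABPA letters were in 33.8% of members' windows, 17.4% of those of tested genes and 8.86% of all windows, and by call in 7 of 28 higher, 3 of 8 lower and 14 of 35 others. For YY1 the shares were 15.5%, 4.61% and 2.75%, with 5 of 28 higher and 2 of 8 lower. The estrogen-related receptor letters were in 2 windows (2.82%, beside 0.965% and 1.56%) and the Myc and USF letters in 7 (9.86%, beside 10.2% and 7.15%). Each window was counted, also for the 3 members with more than 1. Overlapping windows of Mrpl2, which did not pass, each hold the Myc and USF letters. No member's window held overlapping matches of different motifs. These are matches of letters, described without a test, and a window without a match says only that the letters are not in it.

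Members of both subunits were called in each direction. Of 48 large subunit members 21 rose (43.8%) and 7 fell (14.6%), with a median log2 fold change of 0.08. Of 25 small subunit members 9 rose (36.0%) and 2 fell (8.0%), with a median of 0.06. Over all genes, 24.9% rose and 25.4% fell. Mrps18a and Mrps30, which are named for the small subunit, sit in the large subunit of mammals and were counted there. Mrps36, which rose, was counted in the small subunit by its name, although it has since been assigned to the oxoglutarate dehydrogenase complex. Of 41 members of bacterial type 16 rose (39.0%) and 6 fell (14.6%), with a median of 0.06. Of 29 mitochondrion-specific members 13 rose (44.8%) and 2 fell (6.9%), with a median of 0.09. The remaining 3, Mrpl55, Mrps28 and Mrps36, were placed in neither class. Within the small subunit, 13 bacterial-type members had 3 higher (23.1%), near the share of all genes, and 2 lower (15.4%). Whether these groups differ from each other was not tested.

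By position in the ribosome, the 3 stalk proteins Mrpl10, Mrpl11 and Mrpl12, which contact the translation factors, passed as higher. Over all genes, 24.9% were higher and 25.4% lower. Mrpl12 was at 102.7 and 97.4 RPKM in Het and at 121.3 and 125.4 RPKM in Nf1-KO, a log2 fold change of 0.21 (standard error 0.031, limma adjusted p 0.00229). Mrpl10 and Mrpl11 had log2 fold changes of 0.13 each, and limma adjusted p of 0.027 and 0.0435. Of 13 alternative fits Mrpl10 kept its call in 8 and Mrpl11 in 7, and Mrpl11 lost it with the replicate number as a block (limma adjusted p 0.0611). Either lost it when Het replicate 1 or Het replicate 2 was left out, Mrpl10 also without Nf1-KO replicate 1 and Mrpl11 also without Nf1-KO replicate 2 (limma adjusted p 0.0506 to 0.178 over these fits). Of 8 members in the head of the small subunit, which holds the mRNA and tRNA from above, 5 rose and 0 fell, with a median of 0.19. Of 5 in the central protuberance, 2 rose and 1 fell: Mrpl18 was at 67.6 and 70.3 RPKM against 84.6 and 86.7 RPKM, apart in both groups, while Mrpl40 was lower.

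Around the exit tunnel the direction was mixed, with 3 of 8 higher, 2 lower and a median of -0.01. Mrpl45, which tethers the ribosome to the inner membrane, was at 20.2 and 19.1 RPKM in Het and at 24.4 and 24.7 RPKM in Nf1-KO, a log2 fold change of 0.22 (standard error 0.034, limma adjusted p 0.00269). Mrpl44 and Mrpl39 were the others that rose, and Mrpl23 and Mrpl47 fell. The list had no called gene lower without scaling, where its median was 0.07.

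The paralogues Mrps18a, Mrps18b and Mrps18c, which are related to the same bacterial protein, had unlike values. The lists used here class Mrps18c as bacterial and the other paralogues as mitochondrion-specific. Mrps18a, in the large subunit, was at 41.9 and 43.5 RPKM in Het and at 51.7 and 50.8 RPKM in Nf1-KO, and rose by 0.17 on the log2 scale (limma adjusted p 0.00398). Mrps18b was at 9.45 and 10.1 RPKM against 7.51 and 9.45 RPKM. Its log2 fold change of -0.28 (standard error 0.094), the second largest decrease of all tested members, missed the threshold with a limma adjusted p of 0.0501. The Nf1-KO replicates of Mrps18b decide it: the value was -0.41 without Nf1-KO replicate 2 (limma adjusted p 0.000449) and -0.12 without Nf1-KO replicate 1 (0.129). It passed with the replicate number as a block (limma adjusted p 0.0131) and with a filter of 1 RPKM in each library (0.0383). Mrps18c was at 17.9 and 17.5 RPKM against 16.6 and 17.8 RPKM, where a change of -0.13 passed (0.0357) only with scaling. Whether the fold changes of the 3 paralogues differ from each other was not tested.

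Among abundant members, Mrps21 was at 111.8 and 112.8 RPKM in Het and at 120.4 and 121.7 RPKM in Nf1-KO. Scaling took this gap away, with a log2 fold change of 0.01 (limma adjusted p 0.58) beside 0.11 (0.00514) for the values as deposited. Mrpl30 was at 88.3 and 90.4 RPKM against 104.6 and 106.5 RPKM and rose by 0.14 (limma adjusted p 0.00294). Mrps36, since assigned to the oxoglutarate dehydrogenase complex rather than to the ribosome, was at 55.9 and 53.4 RPKM against 65.1 and 68.1 RPKM and rose by 0.19 (0.00421). Mrps30 rose by 0.17 (limma adjusted p 0.019), but was at 0.11 and did not pass without Het replicate 2 (0.0846), nor did it pass with no filter (0.0984). The lowest members Mrps25, Mrps22 and Mrpl17 had log2 fold changes of 0.05, -0.05 and -0.01 and did not pass. Across the 73 members, which are genes and not replicates, the fold change had a Pearson r of 0.05 with the log2 length of the longest transcript, -0.08 with its GC content and 0.17 with the log2 level.

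The authors' deposited table, made from read counts of the same libraries, held all 73 tested members. In it 18 were higher and 2 lower at an adjusted p under 0.05, that is 27.4% of the members where 31.6% of its 13985 genes were called (15.0% higher and 16.6% lower). The median log2 fold change of the members in the authors' deposited table was 0.05. All 20 were also called here with the same sign, and 19 members were called here only. Mrpl14 had a log2 fold change of 0.48 in the authors' deposited table (adjusted p 3.24e-11), Mrps9 0.38 (2.6e-07) and Mrpl12 0.20 (7.69e-05). Mrpl55 and Mrps12, at -0.36 (0.000357) and -0.26 (0.0222), were the 2 lower members in the authors' deposited table. Both analyses use the same libraries and are not independent.

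**Figure D3:**
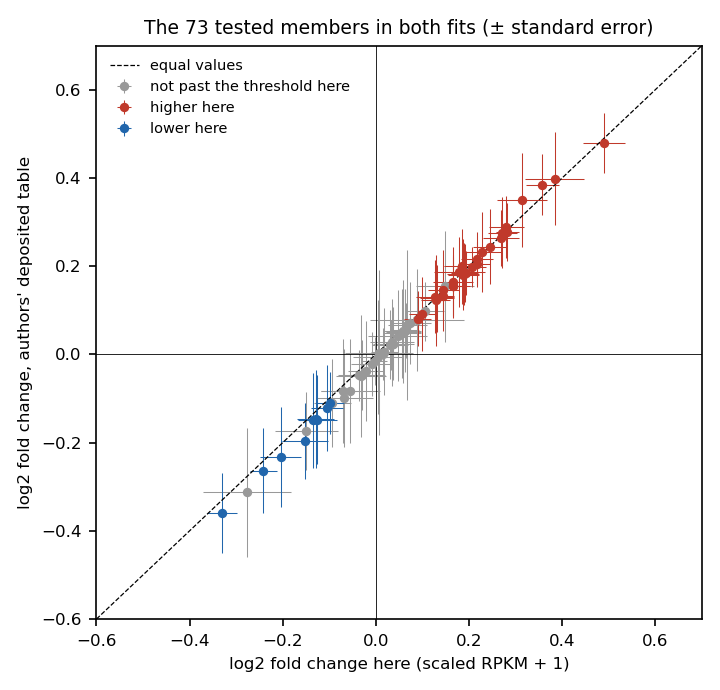
Log2 fold change of the 73 tested members here (x axis) and in the authors' deposited table (y axis), with standard errors as bars and equal values on the dashed line. Points lie near the line from Mrpl55 at the lower left to Mrpl14 at the upper right, with wider errors in the authors' table.

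Of 7 further proteins of the ribosome from a list that includes names outside the Mrp scheme, 4 rose and 0 fell. Over all genes, 24.9% rose and 25.4% fell. The median log2 fold change of the 7 was 0.11, and Mrpl57, a member, is in the list. Aurkaip1, at 26.0 ± 1.11 RPKM in Het and 36.1 ± 0.891 RPKM in Nf1-KO (SD, n = 2), rose by 0.37 on the log2 scale (limma adjusted p 0.000428). Dap3, a GTP-binding protein of the small subunit, rose by 0.24, Gadd45gip1 by 0.20 and Ptcd3 by 0.11. Gadd45gip1 was at 0.13 and lost its call without Het replicate 2 (limma adjusted p 0.0524). Ptcd3 did not pass in the fit with a replicate block (limma adjusted p 0.0541), without Het replicate 1 (0.181) and without Nf1-KO replicate 1 (0.108). Ict1, a release factor built into the large subunit, and Chchd1 did not pass, at 0.08 and 0.07.

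Of 18 tested genes for assembly and rRNA modification of the ribosome 3 rose (16.7%, where 24.9% of all genes did) and 1 fell, with a median of 0.10. Those higher were C1qbp (0.32, limma adjusted p 0.000351), Eral1 (0.23), which binds the small subunit rRNA, and Mterf4 (0.32), and Rbfa, a small subunit assembly factor, fell by 0.22. Of 15 translation factors 2 rose (13.3%) and 0 fell, with a median of 0.03. Oxa1l, the insertase that receives new proteins at the inner membrane, was at 14.9 ± 0.141 RPKM in Het and 21.3 ± 0.0495 RPKM in Nf1-KO (SD, n = 2), a log2 fold change of 0.40 (limma adjusted p 0.000101). Tufm, the elongation factor that brings the tRNA, rose by 0.20. Gfm1, the translocase, and Mtif2, the initiation factor, had changes of 0.001 and -0.04 and did not pass. Whether these lists differ from the members was not tested.

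Of 8 genes for mitochondrial DNA and its transcription 3 rose (37.5%) and 1 fell (12.5%), where 24.9% of all genes rose and 25.4% fell. Mterf2 and Polg, the DNA polymerase, rose by 0.27 and 0.32. Mterf1a, at 0.385 RPKM in Het and 0.885 RPKM in Nf1-KO as means, rose by 0.41, a value that the pseudocount sets at so low a level (0.94 with a pseudocount of 0.1). Polrmt, the RNA polymerase that makes the rRNA, fell by 0.22 (limma adjusted p 0.0136). Of 10 nuclear regulators 3 rose and 1 fell. Ppargc1a, the coactivator of mitochondrial genes, was at 5.95 ± 0.184 RPKM in Het and 8.51 ± 0.0707 RPKM in Nf1-KO (SD, n = 2) and rose by 0.37 (limma adjusted p 0.000607). Esrra rose by 0.25 and kept its call in every alternative fit. Nrf1 rose by 0.25 too, but lost its call without Het replicate 1, without Nf1-KO replicate 2 and with no filter (limma adjusted p 0.106, 0.122 and 0.102), and its value was 0.42 with a pseudocount of 0.1. Ppargc1b fell by 0.17 (limma adjusted p 0.0482). Gabpa and Yy1, at 0.12 and 0.01, did not pass. Polrmt was not called lower without scaling, nor was Ppargc1b. Without Het replicate 2 Polrmt was at -0.17 and Ppargc1b at -0.11, and neither passed (limma adjusted p 0.0512 and 0.183). Ppargc1b also lost its call without either Nf1-KO replicate (limma adjusted p 0.133 and 0.102).

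Set beside the families nearest in function, the members moved less in the median. Genes named Nduf followed by a, b, c, s or v and a digit were taken as complex I subunits. Complex I also holds subunits made on these ribosomes. The 36 genes tested had a median log2 fold change of 0.23 with 32 higher and 2 lower. Genes named Rpl or Rps followed by a digit were taken as cytosolic ribosomal proteins. The 84 tested had a median of 0.24 with 65 higher and 7 lower. Both name rules may also take in genes that are named after such a protein but are not part of complex I or of the ribosome. Those families held 88.9% and 77.4% higher genes, against 41.1% of the members and 24.9% of all genes. The difference between the families was not tested.

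**Figure D4:**
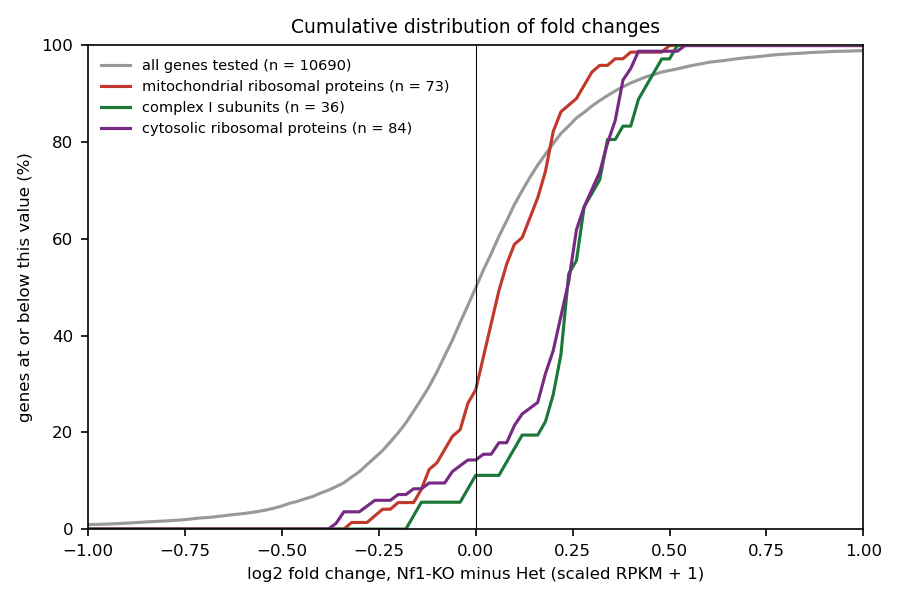
Share of genes (y axis, percent) at or below each log2 fold change of Nf1-KO against Het (x axis). Curves are of the 73 members, 36 and 84 genes taken by name as complex I subunits and cytosolic ribosomal proteins, and all 10690 genes tested. The curve of the members reaches its middle at 0.06, beside 0.0005 for all genes and 0.23 and 0.24 for the other families, and is steeper than that of all genes, which it crosses between 0.1 and 0.2.

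Markers of other cells in the muscle also differed between the groups. Of tested immune cell markers 5 of 5 were higher, of Schwann cell markers 6 of 7 and of fibroblast markers 6 of 7, with 0 lower in each list. Over all genes tested, 24.9% were higher and 25.4% lower. Summed levels were 25.2 to 25.3 RPKM in Het and 57.6 to 59.4 RPKM in Nf1-KO for immune cells. They were 17.1 to 17.9 against 35.8 to 37.0 RPKM for Schwann cells, and 91.9 to 94.0 against 143.9 to 144.5 RPKM for fibroblasts. Endothelial markers were 4 higher and 2 lower of 8, at 98.02 to 99.35 against 114.0 to 116.3 RPKM. Of adipocyte markers 2 of 3 tested were higher, Cfd and Cidec, with the list at 8.3 to 9.52 against 20.04 to 20.65 RPKM. Cfd held most of this sum, at means of 6.335 RPKM in Het and 17.52 RPKM in Nf1-KO. Adipoq had a log2 fold change of -0.19 and did not pass. Among those too low to test, Lep and Plin1 had lower means in Nf1-KO, and Retn and Adrb3 higher. Of satellite cell markers 2 of 4 were higher, at 9.2 to 9.35 against 10.7 to 10.8 RPKM. Only Alas2 of the blood list was tested and it did not pass, with the list at 1.37 to 1.47 against 1.66 to 1.78 RPKM. Adgre1 and Hbb-b1 were listed at 0 in every library. The part of other cells in the members' changes was not tested.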

How the data were processed

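Total RNA of 4 libraries was measured with an Illumina TruSeq version 2 kit, per the labels' protocols. The submitters' processing notes name STAR 2.4.2a, build mm9 and DESeq2. Counter, annotation and strand are not given in the sources used here. The authors deposited 34682 rows of gene values for each library, read from the values as RPKM: sums ran from 532315 to 547144, and the deposited mean count per RPKM rose with transcript length (log-log slope 0.957 over 8489 genes). Reads were not told from fragments. In the authors' deposited table, the signal (mean normalised count), log2 fold change, its standard error, test score and p-value follow the layout of DESeq2, per the file headers. The direction was read from the libraries' values.

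Here 33 rows named by a number were dropped, and 15497 rows (44.7%) were at 0 in every library. The planned test for RPKM was used: limma 3.58.1 in R 4.3.3 was run on log2(RPKM + 1), with a variance trend and Benjamini-Hochberg adjustment (two-sided, 0.05) over 10690 genes of at least 0.5 RPKM in at least 2 libraries. Fold changes understate those of low genes. Libraries were scaled by a trimmed mean of their log ratios, dropping at each end 30% by ratio and 5% by abundance, with factors of 0.969, 0.967, 1.03 and 1.03. An exact permutation test of 2 against 2 cannot go below 0.333. The fit was tested on simulated data. GENCODE M21 (GRCm38) gave lengths and overlapping exons for 73 members. The promoter windows carry GRCm38.p6 coordinates. No other coordinates are printed, since the files use mm9.

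Named were the 8 largest increases and decreases past the threshold, the 4 highest and lowest levels, members fixed by role, and up to 4 genes with the smallest adjusted p per list. Other genes of the lists, the neighbours by exon overlap and a few further members were chosen after their values were seen. Members and lists were chosen with earlier results of these data known. Alternatives covered scaling, pseudocount, filter, variance trend, threshold, copies, replicate block and each library left out.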

Additional observations from a re-analysis of the deposited data

How the results depend on the processing

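The 30 higher members ranged from 22 to 31 under the alternatives tried other than unscaled values (48) and an adjusted p under 0.01 (21). The 9 lower members became 2 with unscaled values, 4 with no filter, 5 without a variance trend and 3 at an adjusted p under 0.01, and the cause was not tested. When each library was left out, 22 to 28 members were higher and 4 to 6 lower, with 5 without Het replicate 1 and 4 without Nf1-KO replicate 1. The median of 0.0626 became 0.1516 unscaled and 0.0496 with no filter, which adds genes of low value, and ran from 0.0524 to 0.0837 with each library left out. Over the 13 refits, 20 of the higher members and Mrpl55 and Mrps12 among the lower kept their call in every one. Mrps22 turned from -0.05 to 0.0181 unscaled and ran from -0.1202 to 0.0257 with each library left out, positive without Nf1-KO replicate 2. Mrpl17 turned from -0.01 to 0.0705 unscaled and to 0.0009 when 1 RPKM was required throughout. It ran from -0.0268 to 0.0241 with each library left out, positive without Het replicate 1 (0.0006) or Nf1-KO replicate 1. Without Het replicate 1, Mrps21 (at most 0.0303 with another library left out) turned to -0.0003 and Mrps25 (at most 0.1166) to -0.0329. Mrps22, Mrpl17 and Mrps25 were called in none of those settings. Mrps21 was called higher with unscaled values (0.1081, limma adjusted p 0.00514) and in none of the other settings.

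Libraries of the same replicate number showed no shared deviation: their deviations from the group means correlated at -0.018 over genes. This value cannot show whether the libraries were prepared as pairs. A fit with a replicate block called 28 members higher and 8 lower, with a median of 0.0626. With 2 libraries per group, depth and spread limit what can be detected, most of all in the members of lowest count. In the authors' deposited table these were Mrps34 and Mrps6, with mean normalised counts of 243.6 and 280.1. Mrpl17, among the lowest in RPKM, had 1605 there.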
